A study of Mus musculus with 9 samples.

Results

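Cholesterol synthesis, uptake and sterol sensing were followed through 28 named genes, picked by symbol from the 56748 genes of the deposited count table. All 28 were present and all 28 passed the filter on low counts, as did 13042 genes in all. Polyadenylated RNA was sequenced from bulk liver tissue. The animals were C57BL/6J males aged 28 weeks that had all eaten a high-fat diet for 20 weeks, starting at 8 weeks of age. During the last 4 weeks, 5 mice had daily intraperitoneal formoterol at 1 mg/kg, and 4 mice had its vehicle, DMSO. Formoterol is an agonist of beta-2 adrenergic receptors. No chow-fed or untreated mice are among the samples, so each value is a level on the high-fat diet. Library names are the animal codes of the table's columns. Codes ending in one suffix (M46, M47, M48, M49, M50) were read as formoterol and those with the other (M56, M58, M59, M60) as vehicle, from the suffix's last letter and the group sizes. The direction of each difference rests on that reading.

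Liver cells keep their sterol content steady through a feedback loop. When sterols are plentiful, INSIG proteins hold the escort protein SCAP, and with it the transcription factor SREBP-2, in the endoplasmic reticulum. When sterols run short, SCAP carries SREBP-2 to the Golgi, where proteases release the part that enters the nucleus and switches on genes of sterol synthesis and uptake. Synthesis itself runs from acetyl-CoA through mevalonate and isoprenoids to squalene, which is closed into lanosterol and trimmed to cholesterol.

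Depth was 12336665 to 20339665 counts per library, and the 28 genes took up 0.302% to 0.517% of the counts. Values are CPM, scaled to library size with TMM, which adjusts library totals for differences in composition. Fold changes are log2, formoterol minus vehicle, with their standard error (SE) from edgeR's quasi-likelihood fit over all 13042 genes. Means are given ± SD over 4 vehicle and 5 formoterol libraries. Hepatocyte markers were abundant in every library, with Alb at 63462 to 105058 CPM. The summed level of 7 hepatocyte markers was 84116 to 97182 CPM in vehicle and 99334 to 140841 in formoterol libraries, and these ranges did not overlap. Alb made up most of that sum, and its own ranges overlapped, 63462 to 73380 CPM in vehicle and 72733 to 105058 in formoterol libraries. Of the 7 only Apoa1 and Arg1 had groups without overlap, as 2.45% of all genes tested did with higher values under formoterol. All 7 had a positive log2 fold change, and 4 were higher at an unadjusted edgeR p under 0.05, against 9.03% of all genes tested. Summed levels of 6 monocyte and macrophage markers were 43.7 to 85.7 CPM in vehicle and 20.9 to 60.8 in formoterol libraries, and those of 7 stellate cell and fibroblast markers 221 to 385 CPM in vehicle and 72.5 to 353 in formoterol libraries. The 4 adipocyte markers summed to 6.67 to 19.7 CPM in vehicle and 21.2 to 107 in formoterol libraries, again without overlap. Nearly all of that was Cfd, with 75.4 ± 32.6 CPM with formoterol against 11.7 ± 5.89 with vehicle (log2 fold change 2.68, SE 0.50, edgeR adjusted p = 0.158), while Plin1 was at 0 in all 9 libraries, Lep in 8 and Adipoq in 7. In bulk tissue, fewer cells of a type and less RNA per cell cannot be told apart, and the part these marker levels play in the results was not tested.

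The genes lay on both sides of no difference, most of them close to it. None of the 28 passed the edgeR test after Benjamini-Hochberg adjustment over all genes (smallest adjusted p = 0.159), where 0% of all genes tested passed. By other tools, 2 of the 28 were called with DESeq2, 0 with limma-voom and 3 once its samples were given quality weights. Over all genes DESeq2 called 2.31% higher and 0.845% lower, and the weighted fit 6.07% higher and 4.46% lower, so the 3 members (10.7%) were near that background. In the edgeR fit 3 members had an unadjusted p under 0.05, 2 of them higher and 1 lower under formoterol, or 10.7%, against a background of 14.6% of all genes tested. The median log2 fold change was −0.023 over the members and −0.014 over all genes, with 13 members positive and 15 negative. By role the median was −0.039 for 4 sterol sensing genes, 0.024 for 8 enzymes of the mevalonate and isoprenoid steps, 0.062 for 12 enzymes of the squalene and sterol steps and −0.017 for 4 genes of sterol transport and esterification. For 25 of 28 members the 95% interval of the fold change lay within 2-fold in both directions. The exceptions were Fdps (−1.68 to 0.17), Sqle (−1.10 to 0.56) and Ebp (0.33 to 1.03).

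**Figure D1:**
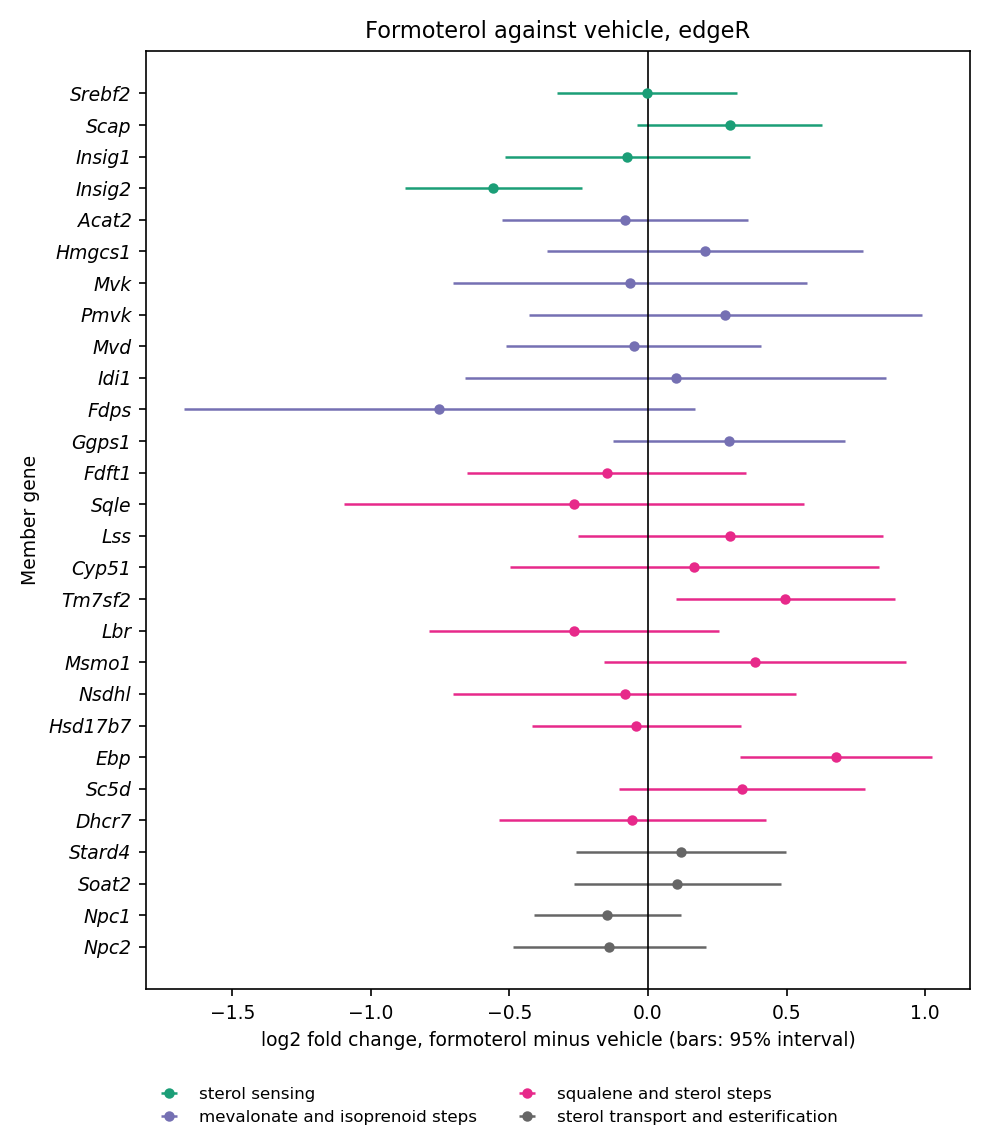
Log2 fold change (x axis, formoterol minus vehicle) of each of the 28 genes (y axis), with bars for the 95% interval from the edgeR fit and colours for the 4 roles. The intervals of Insig2, Tm7sf2 and Ebp exclude 0 before adjustment, and the other 25 include it.

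Of the 28 genes, 3 stood apart library by library after TMM scaling, Ebp and Tm7sf2 with higher values in every formoterol library and Insig2 with lower ones. They make up 10.7% of the members, while such a separation held for 4.84% of all genes tested, 2.45% with higher and 2.38% with lower values under formoterol. Ebp and Tm7sf2 both act late in the pathway, on the ring system of the sterol, and Insig2 is one of its brakes. With all 9 libraries none of the 3 passed the edgeR test.

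Values by library follow the order M56, M58, M59, M60 for vehicle and M46, M47, M48, M49, M50 for formoterol. Ebp (ENSMUSG00000031168; mm39 chromosome X, 8051568 to 8059751) encodes the sterol isomerase that shifts a double bond in the B ring. Ebp had 149.7, 156, 183 and 183 CPM in the vehicle libraries and 295, 295, 309, 198 and 246 CPM in the formoterol libraries. The lowest formoterol library, M49, stood above the highest vehicle libraries, M59 and M60, by a small margin. The means were 269 ± 46.04 CPM with formoterol against 168 ± 17.4 with vehicle (log2 fold change 0.68, SE 0.16, edgeR adjusted p = 0.159). It was called higher by DESeq2 (adjusted p = 0.00832, background 2.31% of genes called higher), as did limma-voom with sample quality weights (adjusted p = 0.00444, background 6.07%). With no filter on low counts edgeR called it too (adjusted p = 0.0325, background 0.794%). Without formoterol library M49 edgeR called it with a log2 fold change of 0.77 (adjusted p = 0.0113), where 5.51% of all genes tested were called, 3.47% as higher. Over all alternatives the adjusted p of Ebp ranged from 0.00444 to 0.477. No other member passed edgeR when any 1 library was left out.

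Insig2 (ENSMUSG00000003721; mm39 chromosome 1, 121232082 to 121260318) encodes the sterol sensor that retains SCAP. Insig2 had 115, 109.5, 139.6 and 117 CPM in the vehicle libraries and 67.9, 80.0, 103, 81.9 and 75.9 CPM in the formoterol libraries. Every formoterol library was lower than every vehicle library, with M48 the nearest to the vehicle range. The means were 81.8 ± 13.2 CPM with formoterol against 121 ± 13.2 with vehicle (log2 fold change −0.56, SE 0.15, edgeR adjusted p = 0.172). It was called lower by DESeq2 (adjusted p = 0.036, background 0.845% of genes called lower), and so did limma-voom with sample quality weights (adjusted p = 0.0119, background 4.46%). Without formoterol library M49 the edgeR adjusted p was 0.0526, and over all alternatives it ranged from 0.0119 to 0.477.

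Tm7sf2 (ENSMUSG00000024799; mm39 chromosome 19, 6112851 to 6118403) encodes a sterol reductase of the endoplasmic reticulum. Tm7sf2 had 59.8, 45.2, 60.3 and 50.7 CPM in the vehicle libraries and 62.5, 106, 87.0, 62.0 and 62.9 CPM in the formoterol libraries. The groups were separated by little: M46, M49 and M50 lay just above the vehicle library M59, while M47 and M48 were far higher. This separation rests on the TMM scaling. Tm7sf2 had 1070 of 20339665 counts in M50 and 1026 of 15328239 in the vehicle library M56, so the groups overlap on library totals. With that scaling the log2 fold change was 0.34 (edgeR adjusted p = 0.466). The means were 76.2 ± 19.9 CPM with formoterol against 54.0 ± 7.35 with vehicle (log2 fold change 0.50, SE 0.18, edgeR adjusted p = 0.241). Limma-voom with sample quality weights was the one tool that called it (adjusted p = 0.0216), and over all alternatives the adjusted p ranged from 0.0216 to 0.514. Its span overlaps that of Vps51 on the same strand, and reads of the overlap cannot be assigned with certainty. Vps51 had 7.92 ± 2.38 CPM with formoterol and 8.51 ± 1.91 with vehicle.

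**Figure D2:**
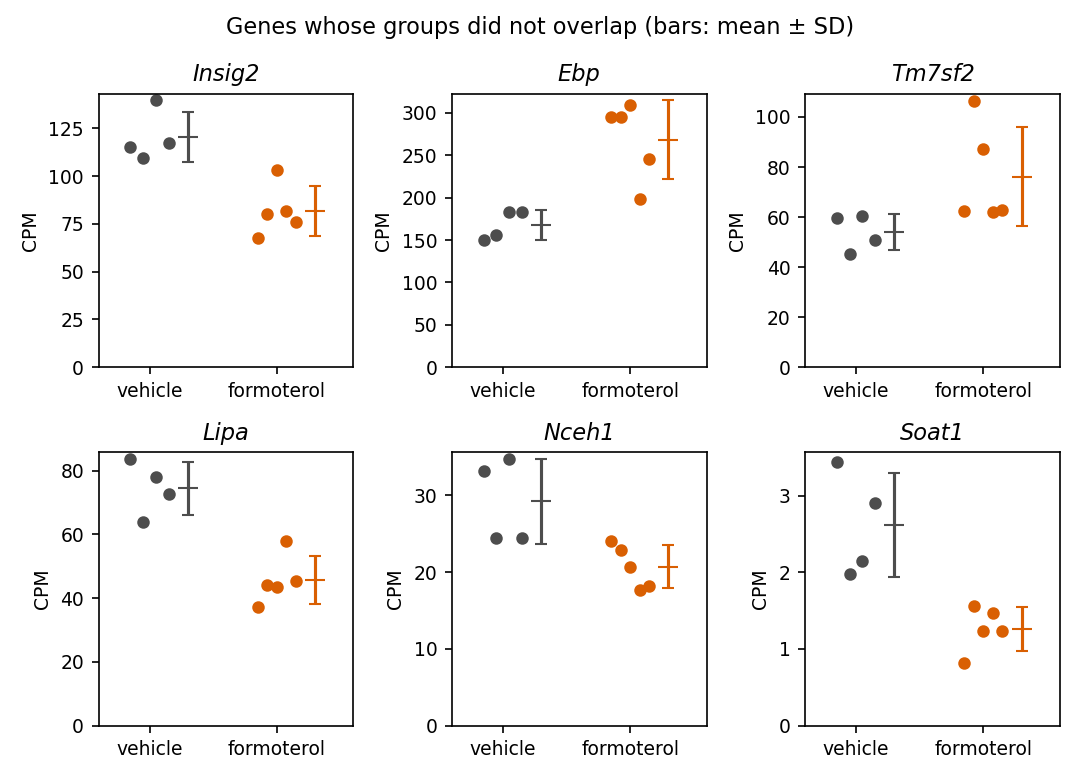
CPM per library (y axis, from 0) of 3 member genes, Insig2, Ebp and Tm7sf2, and of 3 sterol ester genes, Lipa, Nceh1 and Soat1, in 4 vehicle and 5 formoterol libraries. Points are libraries and bars are mean ± SD. In each panel the 2 groups do not overlap, by a small margin for Ebp, Tm7sf2 and Nceh1.

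The remaining sterol sensing genes were close between the groups. Srebf2 encodes SREBP-2. Srebf2 had 37.3, 30.3, 33.0 and 32.3 CPM in the vehicle libraries and 30.2, 33.2, 25.7, 41.2 and 35.4 CPM in the formoterol libraries. The means differed by less than the spread within either group, and the 95% interval of the log2 fold change was −0.33 to 0.32. Scap encodes the escort protein. Scap had 25.3, 29.4, 32.9 and 29.1 CPM in the vehicle libraries and 37.7, 42.4, 28.3, 30.5 and 40.4 CPM in the formoterol libraries. Its means were 35.8 ± 6.19 CPM with formoterol against 29.2 ± 3.09 with vehicle (log2 fold change 0.30, SE 0.16, edgeR adjusted p = 0.404), and the ranges overlapped, with M48 and M49 inside the vehicle range. Insig1 is a partner of Insig2 that SREBP-2 itself switches on. Insig1 had 324, 209, 322 and 273 CPM in the vehicle libraries and 187, 312, 278, 202 and 359 CPM in the formoterol libraries. The groups overlapped over most of their range, and the log2 fold change was −0.074 (95% interval −0.52 to 0.37). Per kilobase of gene length, Insig1 stood at 88.6 CPM per kb over all 9 libraries and Insig2 at 28.5. The difference between the groups was thus seen in the less abundant of the 2 sensors.

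The first steps of the pathway build mevalonate. Hmgcs1, the cytosolic synthase of HMG-CoA, was the most abundant member per kilobase, at 260.1 CPM per kb. Hmgcs1 had 1362, 935, 1576 and 533 CPM in the vehicle libraries and 966, 1252, 1570.3, 1076 and 1484 CPM in the formoterol libraries. Vehicle library M60 was far below the other 8 libraries, and the formoterol range lay within the vehicle range (log2 fold change 0.21, SE 0.27, edgeR adjusted p = 0.77). Acat2, the cytosolic thiolase that feeds it, ranged from 37.3 to 85.9 CPM. The kinases Mvk and Pmvk and the decarboxylase Mvd follow, which turn mevalonate into isopentenyl diphosphate. Mvk ranged from 5.35 to 13.96 CPM and Mvd from 15.1 to 31.5. Pmvk had 15.03, 6.75, 13.6 and 9.29 CPM in the vehicle libraries and 5.45, 19.1, 10.7, 18.3 and 14.2 CPM in the formoterol libraries. The lowest Pmvk value was in formoterol library M46 and the highest in M47, so the spread within that group exceeded the difference between the groups (log2 fold change 0.28, SE 0.33, edgeR adjusted p = 0.746).

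Isoprenoids are made next. Idi1 encodes the isomerase of isopentenyl diphosphate. Idi1 had 16.3, 6.42, 12.4 and 3.27 CPM in the vehicle libraries and 11.7, 11.2, 10.6, 10.1 and 7.94 CPM in the formoterol libraries. Its 2 extremes were both vehicle libraries, M56 and M60. Idi1 has 5 processed pseudogenes in the table with 226 counts in all, against 1483 for Idi1, so its level is uncertain. Fdps, the farnesyl diphosphate synthase, had the widest range of all members, 7.78-fold from lowest to highest library. Fdps had 9.49, 4.69, 7.03 and 2.80 CPM in the vehicle libraries and 1.22, 5.95, 2.33, 5.26 and 2.94 CPM in the formoterol libraries. The formoterol libraries M46, M48 and M50 were low and M56 and M59 of the vehicle group high, with overlap between the groups (log2 fold change −0.75, SE 0.43, edgeR adjusted p = 0.443). It rests on 15 to 163 counts per library and overlaps the gene Gm43738 on the same strand, which is listed at 0, so its level is uncertain as well. Ggps1, which makes geranylgeranyl diphosphate for protein prenylation, was flat by comparison. Ggps1 had 6.58, 7.08, 6.35 and 5.81 CPM in the vehicle libraries and 7.89, 8.79, 8.56, 8.48 and 5.77 CPM in the formoterol libraries. M46, M47, M48 and M49 were above the vehicle range and M50 was below it (log2 fold change 0.29, SE 0.20, edgeR adjusted p = 0.521).

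From squalene on, most enzymes had means close to each other in the 2 groups. Sqle, the squalene epoxidase, is a rate-controlling enzyme of the pathway. Sqle had 68.4, 33.7, 82.7 and 17.8 CPM in the vehicle libraries and 31.5, 53.2, 38.2, 49.4 and 38.4 CPM in the formoterol libraries. The vehicle libraries held both the highest and the lowest value, M59 and M60, and all 5 formoterol libraries lay between them (log2 fold change −0.27, SE 0.38, edgeR adjusted p = 0.794). Fdft1, which makes squalene, ranged from 80.2 to 175 CPM and Lss, which closes the ring, from 38.4 to 98.5 CPM. Their log2 fold changes were −0.15 (SE 0.24) and 0.30 (SE 0.26). The lanosterol demethylase Cyp51 ranged from 79.6 to 257 CPM, and Nsdhl and Hsd17b7, which act with Msmo1 to remove methyl groups, from 44.3 to 131 and 50.05 to 90.2. Their log2 fold changes were 0.17, −0.084 and −0.043, each smaller than its SE of 0.31, 0.29 and 0.18. Dhcr7, which reduces the last double bond on one branch of the pathway, had a log2 fold change of −0.056 (SE 0.23).

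Msmo1 and Sc5d were the next 2 of this group by p. Msmo1 encodes the methylsterol oxygenase. Msmo1 had 201, 111, 201 and 92.6 CPM in the vehicle libraries and 192, 222, 254, 125 and 196 CPM in the formoterol libraries. M58 and M60 had the lowest values of the 9, and M49 lay between them and the other formoterol libraries (log2 fold change 0.39, SE 0.25, edgeR adjusted p = 0.514). Sc5d, the sterol desaturase that acts after Ebp, was abundant at 207 CPM per kb. Sc5d had 882, 739, 1134 and 760.3 CPM in the vehicle libraries and 715, 1206, 1471, 1011 and 1153 CPM in the formoterol libraries. M46 was the lowest library of all and M48 the highest, both treated with formoterol (log2 fold change 0.34, SE 0.21, edgeR adjusted p = 0.48). Lbr, a nuclear envelope protein with the same reductase activity as Tm7sf2, ranged from 2.88 to 5.08 CPM (log2 fold change −0.27, SE 0.24). Per kilobase Tm7sf2 stood at 15.1 CPM per kb and Lbr at 0.887.

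The 4 genes that move or esterify sterol had narrow ranges, 1.29-fold to 1.67-fold from the lowest to the highest library. Npc1 is the membrane protein that exports cholesterol from lysosomes, and Npc2 its soluble partner. Npc1 had 79.7, 71.5, 83.0 and 76.7 CPM in the vehicle libraries and 64.2, 70.9, 68.1, 72.1 and 75.8 CPM in the formoterol libraries. M49 and M50 reached into the vehicle range and the other formoterol libraries lay below it, and the 95% interval was −0.41 to 0.12 on the log2 scale. Npc2 had 24.6, 24.5, 25.3 and 32.5 CPM in the vehicle libraries and 21.6, 27.2, 23.0, 29.9 and 19.5 CPM in the formoterol libraries. M60 stood above all others, and the formoterol range enclosed the other 3 vehicle libraries. Stard4 encodes a cytosolic sterol carrier. Stard4 had 91.8, 70.6, 116 and 72.9 CPM in the vehicle libraries and 103, 108, 104, 90.0 and 71.4 CPM in the formoterol libraries. The highest library, M59, and the lowest, M58, were both vehicle. Soat2, the hepatocyte enzyme that esterifies cholesterol for lipoproteins and storage, completes the group. Soat2 had 20.2, 20.7, 23.6 and 30.3 CPM in the vehicle libraries and 22.1, 25.9, 32.9, 20.9 and 25.6 CPM in the formoterol libraries. The groups overlapped over most of their range. Log2 fold changes were −0.15, −0.14, 0.12 and 0.10 for Npc1, Npc2, Stard4 and Soat2, with SE from 0.12 to 0.18 and adjusted p from 0.624 to 0.825.

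The larger pattern in these genes ran between animals of the same group. The 20 enzymes from Acat2 to Dhcr7 summed to 3618, 2529.6, 4198 and 2067 CPM in the vehicle libraries and to 2783, 4017, 4465, 3251 and 3850.4 CPM in the formoterol libraries. M59 had the highest value of the 9 libraries for 9 of the 20 enzymes and M60 the lowest for 9, both in the vehicle group. M46 and M58 were each lowest for 4 enzymes. As a mean of log2 CPM relative to the 9 libraries, the enzymes stood at 0.31, −0.37, 0.39 and −0.58 in the vehicle libraries and at −0.33, 0.35, 0.12, 0.11 and 0.0026 in the formoterol libraries. The formoterol range lay inside the vehicle range on that scale. Collagen gene Col1a1, a stellate cell marker, had 45.8, 11.6, 35.3 and 14.6 CPM in the vehicle libraries. In the formoterol libraries it had 0.732, 4.39, 2.46, 32.3 and 9.18 CPM, highest in M49. Of the 7 stellate cell and fibroblast markers, Col1a1, Col3a1, Dcn, Pdgfrb and Reln were higher in M56 and M59 than in M58 and M60. Lrat and Des were not, and Lrat had 17.2, 14.2, 16.2 and 19.3 CPM in the vehicle libraries, highest in M60. The part of these markers in the spread of the enzymes was not tested.

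**Figure D3:**
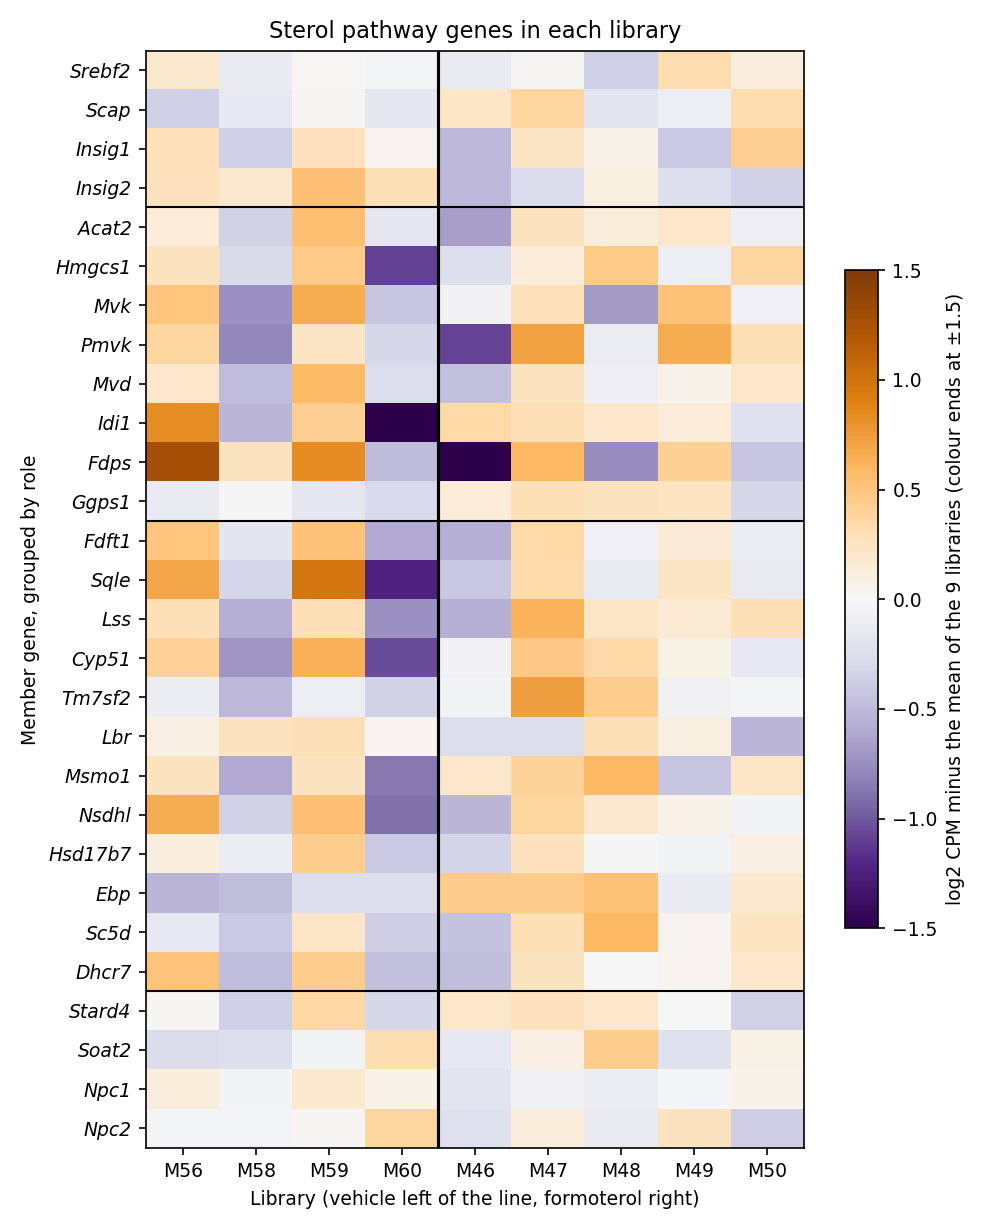
Log2 CPM of each of the 28 genes (rows, grouped by role) in each library (columns, vehicle left and formoterol right of the line), minus the gene's mean over the 9 libraries. Colours end at ±1.5 on the log2 scale. Most enzyme rows are high in M56, M59 and M47 and low in M58, M60 and M46, while Ebp and Insig2 are separated by the line.

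Most enzymes shared this order of the libraries. Pearson's r of each enzyme's log2 CPM with the mean of the other 19 enzymes, over the 9 libraries, was at least 0.8 for 10 of 20 and at least 0.5 for 17 of 20, with a median of 0.78. These values describe 9 libraries that share one scaling, and carry no p. Nsdhl (0.97), Lss (0.94), Fdft1 (0.93), Dhcr7 (0.92) and Cyp51 (0.92) were closest to the mean. The median was 0.81 after the mean of each group was taken out, and 0.83 without the 2 libraries farthest from the median. Ebp (0.043), Lbr (0.048) and Ggps1 (0.25) did not share the order. Among the sensors, Insig1 had r = 0.54 with the enzyme mean, Srebf2 0.29, Insig2 0.11 and Scap 0.10. After the group means were taken out these were 0.58, 0.30, 0.51 and 0.0010, and without the 2 farthest libraries 0.65, 0.24, 0.72 and −0.26. Insig2 was thus close to Insig1 in these last 2 settings and far below it over all 9 libraries. For Ebp the 3 values were 0.043, −0.13 and 0.15, and for Tm7sf2 0.57, 0.64 and 0.21.

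Because many enzymes varied together, their promoters were searched for the sites at which SREBP-2 and its partner factors are known to act. RefSeq promoters on build GRCm38.p6, 250 bases before to 50 after the start, were matched for 22 of the 28 genes, and a gene with several listed starts was counted once if any of them held the letters. On either strand, the sterol regulatory element TCACNCCAC was found in 1 of 22, Hmgcs1, and in 1.44% of the 27025 genes with a promoter entry. The CCAAT box (CCAAT), bound by NF-Y, was found in 20 of 22 and in 41.1% of all genes. These 20 include Ebp, Lbr and Ggps1, which did not share the order of libraries. The background of all genes also holds genes that did not pass the filter on low counts. The GC box (GGGCGG), bound by Sp1, was found in 20 of 22 and in 38.2% of all genes. The cyclic AMP response element TGACGTCA was found in 0 of 22 and in 2.03% of all genes. These are matches of letters within a short window and not measured binding. Only the exact strings given were searched, with N as any base, so a site spelled otherwise was not counted. A gene without a match may therefore still hold such a site. The 150 bases before the start are shown for 2 genes whose groups were separated, Ebp and Insig2, and for 3 enzymes that had overlapping groups, Hmgcs1, Mvd and Sc5d. Each is written 5′ to 3′ on the gene's strand on GRCm38.p6, and capitals mark the sterol regulatory element or a CCAAT box, which reads ATTGG where it lies on the opposite strand.
Hmgcs1 (chr13:119690201-119690350, strand plus): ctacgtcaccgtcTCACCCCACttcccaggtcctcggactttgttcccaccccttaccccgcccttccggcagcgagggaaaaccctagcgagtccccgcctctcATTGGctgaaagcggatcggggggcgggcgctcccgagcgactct
Mvd (chr8:122443423-122443572, strand minus): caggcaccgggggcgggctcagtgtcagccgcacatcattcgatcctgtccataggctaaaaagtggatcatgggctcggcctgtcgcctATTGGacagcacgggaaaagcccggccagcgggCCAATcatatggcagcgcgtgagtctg
Sc5d (chr9:42264301-42264450, strand minus): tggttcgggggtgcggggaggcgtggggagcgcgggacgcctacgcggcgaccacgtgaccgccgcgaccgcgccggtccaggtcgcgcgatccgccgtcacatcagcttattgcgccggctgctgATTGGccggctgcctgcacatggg
Ebp (chrX:8193513-8193662, strand minus): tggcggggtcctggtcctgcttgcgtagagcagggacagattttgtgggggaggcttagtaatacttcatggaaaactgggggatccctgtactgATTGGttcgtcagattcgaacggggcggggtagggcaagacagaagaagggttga
Insig2 (chr1:121332590-121332739, strand minus): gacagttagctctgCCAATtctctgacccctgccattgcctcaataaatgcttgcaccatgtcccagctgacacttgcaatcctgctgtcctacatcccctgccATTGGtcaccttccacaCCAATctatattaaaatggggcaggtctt
In Hmgcs1 the sterol regulatory element begins 137 bases before the start. The Insig2 window belongs to the farthest upstream of 3 listed starts, and gene counts do not show which start was used. Within these 150 bases it holds 3 CCAAT boxes, against 1 in Ebp, Hmgcs1 and Sc5d and 2 in Mvd. These counts depend on the window shown. In the full window searched, Hmgcs1 also had CCAAT boxes at 237 and 176 bases before the start and 10 after it. Ebp had another at 170 bases before the start. The other listed starts of Insig2 had no CCAAT box.

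Beyond the 28 genes, 3 that handle sterol esters had lower values in every formoterol library. Of 13 genes of uptake, esterification and intracellular transport, 4 had an unadjusted p under 0.05, 1 higher and 3 lower, against backgrounds of 9.03% higher and 5.53% lower. The same 3 lower genes, Lipa, Nceh1 and Soat1, had groups that did not overlap, as 2.38% of all genes tested did with lower values under formoterol. With all 9 libraries none of the 13 passed the edgeR test. Lipa (ENSMUSG00000024781; mm39 chromosome 19, 34469718 to 34504874), the lysosomal acid lipase that frees cholesterol from esters, had the smallest p. Lipa had 83.6, 64.0, 77.9 and 72.7 CPM in the vehicle libraries and 37.3, 44.2, 43.4, 57.95 and 45.3 CPM in the formoterol libraries. Every vehicle library was above every formoterol library, and M49 was the highest of the formoterol group (log2 fold change −0.71, SE 0.15, edgeR adjusted p = 0.151). It was called lower by DESeq2 (adjusted p = 0.00517), as did edgeR without M49 (adjusted p = 0.00654, background 2.04% of genes called lower), with a range of 0.00408 to 0.477 over all alternatives. Nceh1 had 33.1, 24.4, 34.8 and 24.4 CPM in the vehicle libraries and 24.0, 22.9, 20.6, 17.6 and 18.2 CPM in the formoterol libraries. This gene encodes a neutral hydrolase of cholesterol esters, and M46 lay just under the lowest vehicle libraries, M58 and M60 (log2 fold change −0.50, SE 0.16, edgeR adjusted p = 0.203). Soat1, the esterifying enzyme of macrophages and most other tissues, was scarce. Soat1 had 3.44, 1.98, 2.15 and 2.90 CPM in the vehicle libraries and 0.814, 1.56, 1.23, 1.46 and 1.24 CPM in the formoterol libraries. It did not pass the test (log2 fold change −1.05, SE 0.35, edgeR adjusted p = 0.214).

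Lipa and Soat1 are abundant in macrophages, and the macrophage marker Lyz2 had a lower mean with formoterol too. Lyz2 had 48.7, 24.3, 31.2 and 34.1 CPM in the vehicle libraries and 12.1, 23.0, 20.5, 32.8 and 18.5 CPM in the formoterol libraries. Its log2 fold change was −0.69 (SE 0.25, edgeR adjusted p = 0.236), and at an unadjusted p under 0.05 3 of 4 monocyte and macrophage markers tested were lower, against 5.53% of all genes. The remaining marker, Trem2, was not lower, with 1.36 ± 1.04 CPM with formoterol against 1.21 ± 0.558 with vehicle. Kupffer cell markers summed to 34.5 to 70.9 CPM in vehicle and 34.1 to 71.6 in formoterol libraries. The part of these cells in the values of Lipa, Nceh1 and Soat1 was not tested. Scp2, a sterol carrier of peroxisomes and the one higher gene of that list, had 5137 ± 874 CPM with formoterol against 3979 ± 366 with vehicle (log2 fold change 0.37, SE 0.17, edgeR adjusted p = 0.337).

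Across all 48 tested genes of the 5 other sterol lists, none passed the edgeR test with all 9 libraries, and 13 had an unadjusted p under 0.05, 9 of them higher, where 14.6% of all genes tested did and 9.03% were higher. Counted together with 14 lipogenic genes, 1 was called by DESeq2, 0 by limma-voom and 11 once its samples were given quality weights, against backgrounds of 2.31% higher and 0.845% lower for DESeq2 and 6.07% higher and 4.46% lower for the weighted fit. Of 12 genes that process SREBP or degrade sterol-regulated enzymes, 3 had an unadjusted p under 0.05, 2 of them higher. Syvn1, a ubiquitin ligase of the endoplasmic reticulum, had 26.0 ± 4.35 CPM with formoterol against 36.4 ± 4.79 with vehicle (log2 fold change −0.49, SE 0.15, edgeR adjusted p = 0.194). Aup1, a protein of lipid droplets and the endoplasmic reticulum, had 129 ± 12.8 CPM with formoterol against 103 ± 13.8 with vehicle. Of 9 genes on isoprenoid branches 1 had an unadjusted p under 0.05, the dolichol kinase Dolk, with 11.1 ± 2.12 CPM with formoterol against 7.81 ± 0.738 with vehicle. Of 4 electron donors of sterol oxidation 2 had an unadjusted p under 0.05, both higher. Por, which passes electrons to Cyp51, Sqle and other enzymes, had 202 ± 70.9 CPM with formoterol against 116 ± 39.4 with vehicle (log2 fold change 0.79, SE 0.28, edgeR adjusted p = 0.223), and without M49 edgeR called it (adjusted p = 0.0395, range over all alternatives 0.0119 to 0.543). Cyb5a, a cytochrome that serves the desaturase Sc5d among others, had 1349 ± 381 CPM with formoterol against 949 ± 138 with vehicle (log2 fold change 0.51, SE 0.21, edgeR adjusted p = 0.286).

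Of 10 tested genes of LXR signalling, oxysterols and sterol efflux, 3 had an unadjusted p under 0.05, all of them higher, against 9.03% of all genes tested. Nr1h3, which encodes LXR alpha, had log2 fold change 0.39 (SE 0.14, edgeR adjusted p = 0.236). Cyp27a1 and Cyp7b1 act in turn on the acidic route from cholesterol to bile acids. Cyp7b1 had 94.6, 53.0, 76.3 and 63.2 CPM in the vehicle libraries and 198, 188, 159, 41.4 and 124 CPM in the formoterol libraries. All formoterol libraries but M49 were above the vehicle range, and M49 was the lowest of the 9 (log2 fold change 0.98, SE 0.38, edgeR adjusted p = 0.269). Without M49 the log2 fold change of Cyp7b1 was 1.21 and edgeR called it (adjusted p = 0.00434, range over all alternatives 0.00434 to 0.52). Cyp27a1 had 165 ± 38.7 CPM with formoterol against 124 ± 16.1 with vehicle (log2 fold change 0.41, SE 0.18, edgeR adjusted p = 0.32). Ch25h was too scarce to be tested, at 0 in 5 of 9 libraries.

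The fatty acid side of the SREBP programme, run mainly by SREBP-1, followed the same order of libraries only in part. The mean log2 CPM of 14 lipogenic genes, relative to the 9 libraries, was 0.18, 0.074, 0.41 and 0.22 in the vehicle libraries and −1.53, 0.15, −0.25, 0.70 and 0.039 in the formoterol libraries. M60, the lowest library for the sterol enzymes, was the third highest for the lipogenic genes. M46 was far the lowest for the lipogenic genes and M49 the highest, both treated with formoterol. M59, the highest for the sterol enzymes, was also high for the lipogenic genes. Over the 9 libraries the 2 means had Pearson's r = 0.38 and Spearman's rho = 0.27, given as a description. By role, Pearson's r of the lipogenic mean was 0.53 with the mevalonate and isoprenoid steps and 0.25 with the squalene and sterol steps. It was 0.60 with sterol sensing and 0.31 with sterol transport and esterification. Of the 14 genes 3 had an unadjusted p under 0.05, as did 14.6% of all genes tested. Elovl5, a fatty acid elongase, had 853 ± 274 CPM with formoterol against 1374 ± 229.9 with vehicle (log2 fold change −0.69, SE 0.24, edgeR adjusted p = 0.223), and Me1, the malic enzyme that supplies NADPH, had 153 ± 72.2 CPM with formoterol against 246 ± 51.5 with vehicle (log2 fold change −0.68, SE 0.31, edgeR adjusted p = 0.339). Mid1ip1, an activator of acetyl-CoA carboxylase, had 57.6 ± 18.5 CPM with formoterol against 41.3 ± 7.08 with vehicle (log2 fold change 0.48, SE 0.22, edgeR adjusted p = 0.333). None of the 14 passed the edgeR test with all 9 libraries. Without M49 edgeR called Me1 (adjusted p = 0.0462, range over all alternatives 0.0462 to 0.607) and the desaturase Fads2 (adjusted p = 0.0425, range 0.0408 to 0.666), both lower. With no filter it called Elovl5 (adjusted p = 0.0486, range 0.0302 to 0.514), also lower. The lipogenic median log2 fold change was −0.30, against 0.028 for the 20 sterol enzymes, and the difference between the 2 medians was not tested.

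**Figure D4:**
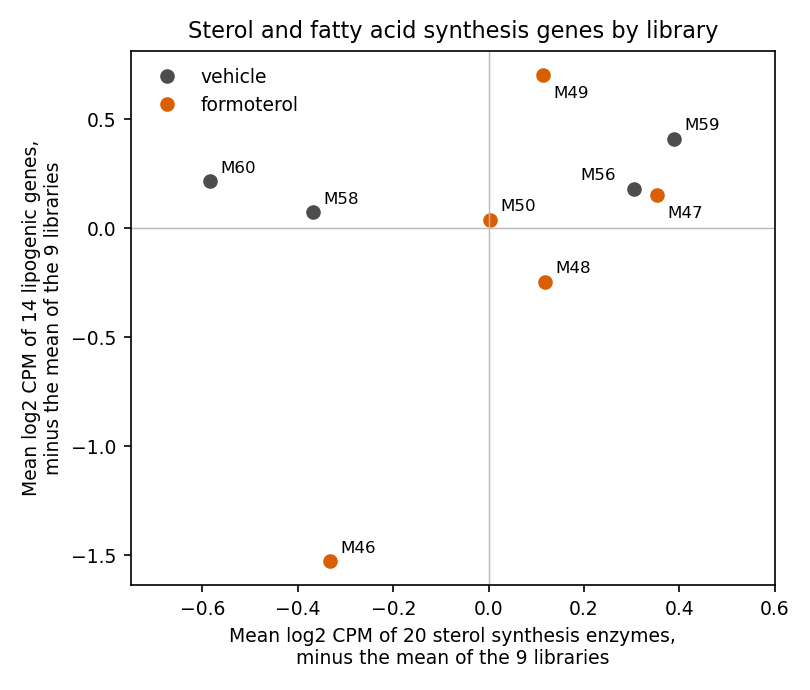
Mean log2 CPM of 20 sterol synthesis enzymes (x axis) and of 14 lipogenic genes (y axis) in each of the 9 libraries, each minus its mean over the libraries. Vehicle libraries (grey) spread along the x axis from −0.58 to 0.39, and formoterol libraries (orange) spread mostly along the y axis, from M46 at −1.53 to M49 at 0.70.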

How the data were processed

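Gene counts from 9 bulk liver libraries, 4 vehicle and 5 formoterol, were used. The authors' deposited table holds whole-number counts of reads for each Ensembl gene, without normalization. Per the submitters' processing notes, HISAT2 2.0.5 and the build mm39 were used, and DESeq2 is named without a role. No source used here gives the counting program, strand setting or annotation, so overlapping genes on either strand cannot be told apart. The spans of Ggps1, Fdft1, Cyp51, Lbr and Npc1 overlap a protein-coding gene on the opposite strand, and those of Fdps and Tm7sf2 one on the same strand. Coordinates are the table's. Gene length in bp is the authors' column.

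Genes were kept by filterByExpr (minimum count 10, minimum total 15), scaled with TMM and tested with edgeR 4.0.16 (robust quasi-likelihood, R 4.3.3), with Benjamini-Hochberg adjustment over all 13042 genes and a threshold of 0.05. Alternatives were other scalings, no filter, DESeq2 1.42.0, limma 3.58.1 (voom, with and without sample quality weights) and each library left out in turn. Library means of log2 CPM use a prior count of 2. The edgeR test was run on simulated counts for formoterol against vehicle over 13042 genes, 200 of them changed, and found 43% of the 2-fold changes and 83% of the 4-fold changes. Of its 131 calls 5 were false. The simulated counts varied independently between genes, and no simulated library departed over many genes at once. These shares may therefore not hold for the measured libraries. Libraries of a group differed by more than counting noise in all 16 pairs (chi-square per degree of freedom at least 24.3). Per the labels' design text the replicates are mice, so a library stands for 1 animal. If it did not, the p-values would cover technical spread alone.

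The members and lists were chosen with earlier results of these data known. Values by library are given for the sensing genes, up to 4 members per role by p, the 4 widest ranges and any member called with 1 library left out. From the other lists, up to 4 genes under p 0.05 are named. Some genes that these rules select are not reported here.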

Additional observations from a re-analysis of the deposited data

Results flagged for a closer look

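Npc2 in vehicle library M60 lay far from the rest of its group, at 32.5 CPM against 24.5 to 25.3 CPM in the other 3 vehicle libraries. It was the 1 group with such a gap by Dixon's test at the 95% level among 56 examined (28 genes in 2 groups), and chance alone flags about 1 in 20. Without M60 the log2 fold change of Npc2 was −0.030, against −0.14 with it.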

How the results depend on the processing

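No member had an adjusted p under 0.05 by edgeR with RLE, upper-quartile or library-total scaling or by limma-voom, which called 0 genes in all. With no filter edgeR called 263 genes, 1 member and 2 genes of the other pathway and lipogenic lists. DESeq2 called 302, 2 and 1, and limma-voom with sample quality weights 1374, 3 and 11. With 1 library left out, edgeR called 0 to 702 genes, 0 to 1 members and 0 to 5 pathway genes. The largest of each came without M49, and without M60 edgeR called 4 genes. With 1 library left out, edgeR gave 2 to 5 members an unadjusted p under 0.05. The share of all genes at that p in those fits was not computed, so this count is not a result about the members. Scaling to library totals moved the median log2 fold change of all genes from −0.014 to −0.16, and with it turned Idi1 (−0.057), Stard4 (−0.030) and Soat2 (−0.064) negative. Srebf2 was 0.0041 with RLE factors and 0.0041 by DESeq2, and Nsdhl 0.021 by limma-voom. With quality weights Insig1 (0.033), Mvd (0.021), Nsdhl (0.092), Hsd17b7 (0.046) and Dhcr7 (0.046) turned positive; the cause was not tested. With 1 library left out the sign changed for Acat2 (−0.20 to 0.11), Cyp51 (−0.060 to 0.47), Dhcr7 (−0.20 to 0.12), Fdft1 (−0.33 to 0.0097), Hmgcs1 (−0.022 to 0.43), Hsd17b7 (−0.17 to 0.12), Idi1 (−0.19 to 0.48), Insig1 (−0.21 to 0.020), Mvd (−0.19 to 0.17), Mvk (−0.26 to 0.17), Nsdhl (−0.31 to 0.15), Soat2 (−0.015 to 0.25), Sqle (−0.55 to 0.077) and Srebf2 (−0.10 to 0.063), none of them called. Over libraries left out, Ebp ranged from 0.61 to 0.77, Tm7sf2 from 0.34 to 0.56 and Insig2 from −0.67 to −0.48. Other settings went beyond these ranges. With library totals Ebp was 0.51 and Insig2 −0.71, and with quality weights Tm7sf2 was 0.71. Ebp, Tm7sf2 and Insig2 kept their direction in every alternative run. So did Fdps, Ggps1, Lbr, Lss, Msmo1, Npc1, Npc2, Pmvk, Sc5d and Scap. The members' median ranged from −0.073 to 0.15 over libraries left out. No paired analysis was possible because the table's columns carry animal codes and not the replicate numbers of the labels, so the replicate block was not run. Depth limits Fdps and Lbr most among the members.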

Other observations

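Among the genes outside the 28 whose log2 CPM over the 9 libraries had the highest Pearson's r with the mean of the 20 sterol enzymes were Aldoc (0.97), Cdh1 (0.94), Elapor1 (0.93), Rdh11 (0.93), Cystm1 (0.91), Supt7l (0.91), Micall2 (0.91) and Gars (0.90). The median r over all other genes tested was −0.012, and 9 genes reached 0.9. Aldoc, a fructose-bisphosphate aldolase, had 7.51, 3.21, 6.40 and 2.53 CPM in the vehicle libraries and 3.25, 7.58, 5.77, 5.02 and 4.18 CPM in the formoterol libraries. Rdh11, a retinol dehydrogenase, had 80.4, 51.1, 106 and 46.4 CPM in the vehicle libraries and 38.1, 97.2, 83.2, 85.1 and 67.1 CPM in the formoterol libraries. Cdh1, which encodes E-cadherin, had 14.9, 4.69, 21.0 and 3.06 CPM in the vehicle libraries and 2.60, 15.9, 13.8, 16.1 and 11.6 CPM in the formoterol libraries, low in M58, M60 and M46 as the sterol enzymes were. For the group difference, the unadjusted edgeR p of these genes ranged from 0.827 to 0.979. The genes were picked from all those tested for this likeness, so the r values are a description and carry no test.

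Over 11743 protein-coding genes tested, log2 fold change and gene length had a Spearman correlation of −0.24 across genes, which are not independent replicates. Over the 28 members it was 0.088. The members had a median length of 4504 bp, and Ebp, Insig2 and Tm7sf2 had 2310, 3473 and 4403 bp.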
